A study of Rattus norvegicus with 30 samples.

Results

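The constitutive cytochrome P450 enzymes of the CYP2A, CYP2C, CYP2E and CYP2F subfamilies were followed in cultured rat hepatocytes given sodium valproate. The 9 genes Cyp2a1, Cyp2a2, Cyp2c7, Cyp2c11, Cyp2c13, Cyp2c22, Cyp2c23, Cyp2e1 and Cyp2f4 were taken by their symbols in the annotation of the array, with every probeset that carries 1 of these symbols. Each of the 9 had 1 such probeset among 31099 probesets, which stand for 14217 named genes, and all 9 passed the filter on low signal. They are 1387511_at for Cyp2a1, 1369424_at for Cyp2a2, 1370241_at for Cyp2c7, 1387328_at for Cyp2c11, 1370495_s_at for Cyp2c13, 1387949_at for Cyp2c22, 1367988_at for Cyp2c23, 1367871_at for Cyp2e1 and 1368608_at for Cyp2f4. A further probeset, 1369275_s_at, is annotated with both Cyp2a1 and Cyp2a2, and its values are given beside theirs.

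Cytochrome P450 enzymes sit in the endoplasmic reticulum and insert oxygen into steroids, fatty acids, retinoids, drugs and solvents, with electrons that arrive through P450 reductase. The CYP2A and CYP2C enzymes of rat liver are known for their sex-dependent levels, which the rhythm of growth hormone secretion sets in the living animal. They are called constitutive because the liver makes them without an inducing drug, and their RNA is known to decline when hepatocytes are taken into culture.

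Sodium valproate is a branched short-chain fatty acid used as an antiepileptic and an inhibitor of histone deacetylases. The cells were hepatocytes of male Sprague Dawley rats, bought frozen, thawed onto collagen, covered with Matrigel, and dosed on day 3 of culture. The 6 groups were 10 mM valproate, 0.5 mM valproate and the water vehicle, each harvested 24 h and 48 h after dosing, with 5 cultures per group. A culture was 1 well, and the labels do not say how many donor animals there were or which wells shared a plate. The p-values therefore cover only the spread between wells, which may be technical. RNA of each culture was read on 1 oligonucleotide array with 1 colour, and precision is limited by the number of arrays. Signals are linear array intensities, and changes are differences of log2(signal + 16) with the standard error of the fit (SE, n = 5 per group). A change was called at a Benjamini-Hochberg adjusted p under 0.05 over 21729 probesets in limma. The comparisons of the doses with water share the water cultures of their time. The mean signals of the 9 probesets were at or above the 84.0th percentile of all probesets.

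Cultures are numbered here within each group by the order of the running numbers in the titles, as the labels give no replicate numbers. The same number in different groups marks no pairing that the labels name. Several arrays stood apart. In the culture numbered 2 of the 10 mM group at 48 h the profile over 2962 probesets reached 0.60 of the mean 24 h response to 10 mM, whereas the other 4 cultures of the group reached 0.76 to 0.80. The log2 ratio of 3' to 5' actin probesets, a sign of RNA quality, was above 2 in 3 arrays, which were culture 3 of water at 24 h (2.76) and cultures 3 and 4 of 0.5 mM at 48 h (2.77 and 2.23). The summed signal of 13 macrophage and Kupffer cell markers was 12800 to 14506 in 10 mM cultures and 29525 to 33597 in water cultures at 24 h, and 10509 to 15915 against 25990 to 28524 at 48 h. The summed signal of 13 stellate cell and fibroblast markers was 7072 to 8353 in 10 mM cultures and 13387 to 14775 in water cultures at 24 h, and 7611 to 9340 against 15594 to 18107 at 48 h. Over the 9 of these markers tested the median change was -0.08 at 24 h and 0.01 at 48 h. The summed signal of 13 hepatocyte markers was 586540 to 706682 in 10 mM cultures and 678346 to 868712 in water cultures at 24 h, and 593973 to 695824 against 674219 to 785809 at 48 h. Across these lists 0 markers were at 0 on any array. The part of these shifts in the P450 results was not tested. In RNA of whole cultures, fewer cells of a type and less RNA per cell cannot be told apart.

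At 10 mM and 24 h, 7 of the 9 genes fell (Cyp2a1, Cyp2a2, Cyp2c7, Cyp2c11, Cyp2c22, Cyp2e1 and Cyp2f4), while Cyp2c13 and Cyp2c23 were not called. Over all 21729 probesets tested, 48.2% were called in that comparison, 6085 of them higher and 4398 (20.2%) lower. None of the 9 was called higher by limma, and 0 had a positive change at an unadjusted p under 0.05. The median change of the 9 was -0.65, against 0.10 for all probesets tested.

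At 10 mM and 48 h, 5 of the 9 genes were lower (Cyp2a1, Cyp2a2, Cyp2c11, Cyp2c23 and Cyp2f4) and Cyp2c13 was higher. Over all probesets tested, 17.9% were called lower and 23.9% higher. The median change of the 9 was -0.67, against 0.04 for all probesets. The difference between the 48 h and the 24 h response to 10 mM was itself called for 7 of the 9 genes, against 10.5% of all probesets. The change against water was more positive at 48 h for 6 of them and more negative for Cyp2c23. Over all probesets the shares were 5.80% more positive and 4.71% more negative. A more positive change need not be a higher signal. For Cyp2c7 the 10 mM mean fell from 2728 to 2131 units, while the water mean fell from 3640 to 2039.

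**Figure D1:**
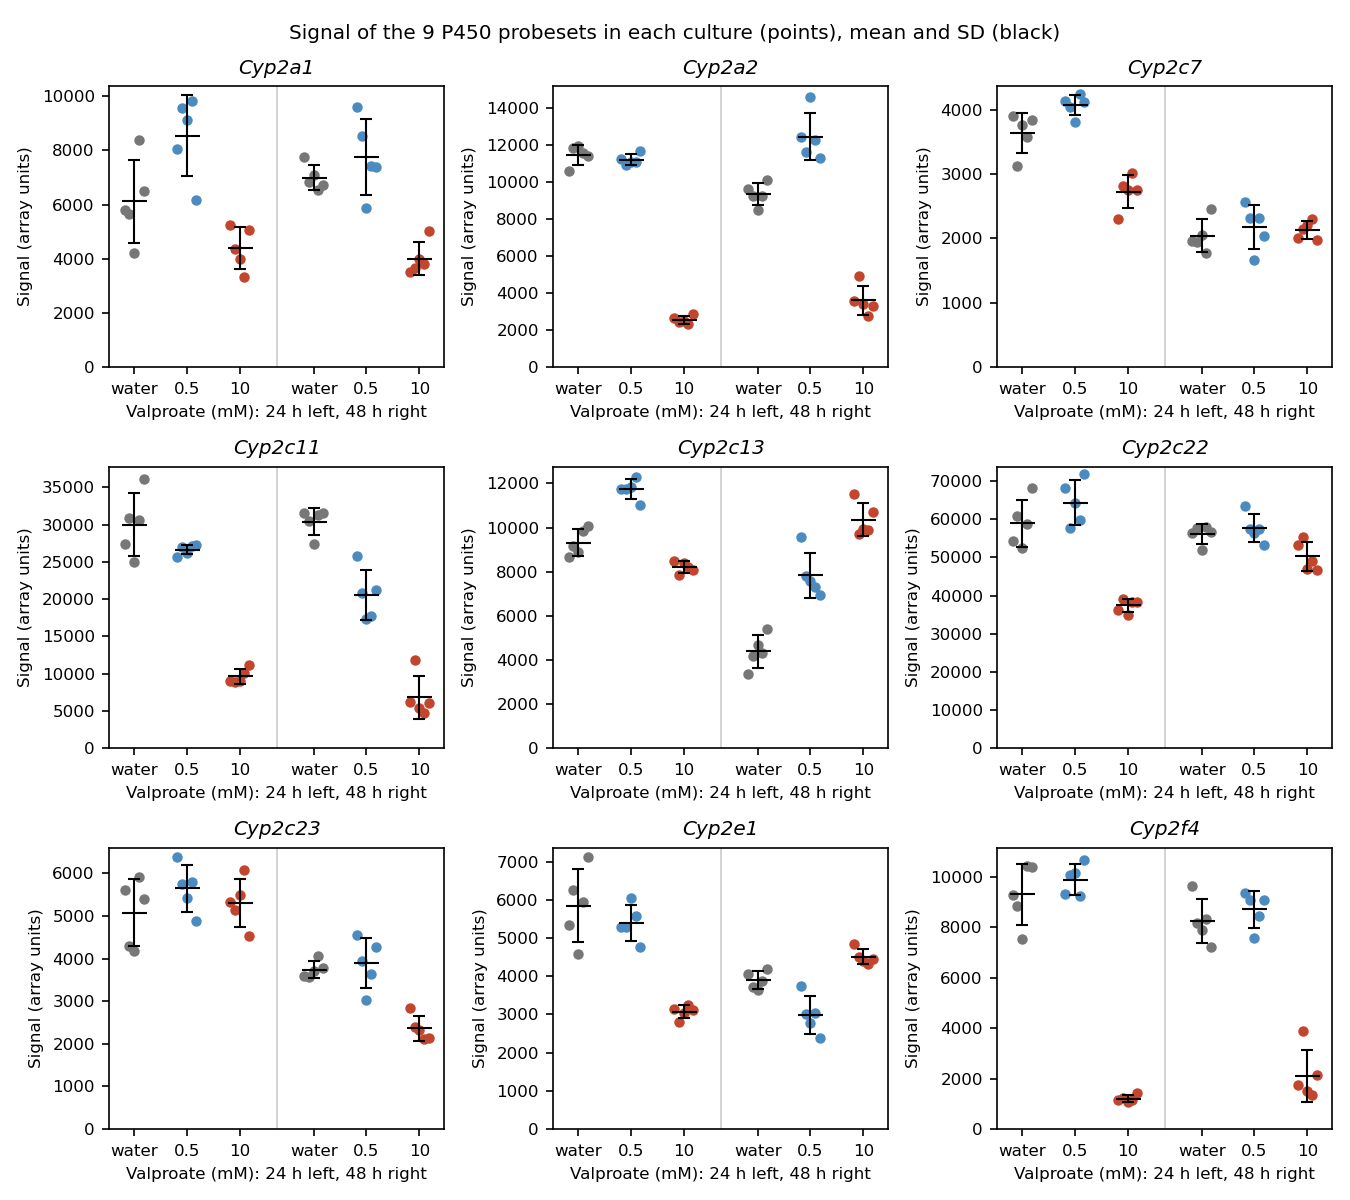
Signal of each of the 9 P450 probesets (vertical axes, array units, starting at 0) in the 30 cultures, by valproate dose in mM, with 24 h at the left and 48 h at the right of each panel. Points are cultures, and black lines are the mean and SD of 5. Cyp2f4, Cyp2a2 and Cyp2c11 at 10 mM lie below all water cultures at both times, and Cyp2c13 and Cyp2e1 at 10 mM and 48 h lie above them. At each time 7 of the 9 probesets had no overlap between 10 mM and water. Of all 21729 probesets tested, 8322 had none at 24 h and 7607 had none at 48 h.

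The promoters of 8 of the 9 genes were found in the RefSeq promoter table of the GRCr8 assembly, and that of Cyp2a2 was not. Those of 4 genes are printed because their RNA moved in different ways. Cyp2f4 had the largest fall, Cyp2c11 fell at both times, Cyp2c13 rose at 48 h, and Cyp2e1 fell at 24 h without a call at 48 h. Each sequence is the 250 bases before the annotated start, on the strand of the gene from 5′ to 3′, and capitals mark the letters TATAAA on either strand. The stretches are chr1:91543518-91543767 (plus strand) for Cyp2f4, chr1:246174966-246175215 (plus strand) for Cyp2c11, chr1:248787189-248787438 (minus strand) for Cyp2c13 and chr1:205269717-205269966 (plus strand) for Cyp2e1.
Cyp2f4: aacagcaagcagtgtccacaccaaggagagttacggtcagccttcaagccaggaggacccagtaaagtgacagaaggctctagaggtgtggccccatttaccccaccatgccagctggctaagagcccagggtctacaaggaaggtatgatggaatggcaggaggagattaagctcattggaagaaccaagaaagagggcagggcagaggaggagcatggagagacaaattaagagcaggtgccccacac
Cyp2c11: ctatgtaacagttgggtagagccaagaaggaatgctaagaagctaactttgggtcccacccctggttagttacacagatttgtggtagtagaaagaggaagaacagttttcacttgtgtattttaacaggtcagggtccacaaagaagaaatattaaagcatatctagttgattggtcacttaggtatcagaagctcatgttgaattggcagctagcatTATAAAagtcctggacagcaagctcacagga
Cyp2c13: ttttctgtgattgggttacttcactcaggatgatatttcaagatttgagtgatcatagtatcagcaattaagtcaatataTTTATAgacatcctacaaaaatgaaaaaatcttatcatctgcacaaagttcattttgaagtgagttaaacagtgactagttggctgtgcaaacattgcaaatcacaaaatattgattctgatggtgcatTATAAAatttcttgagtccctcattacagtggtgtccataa
Cyp2e1: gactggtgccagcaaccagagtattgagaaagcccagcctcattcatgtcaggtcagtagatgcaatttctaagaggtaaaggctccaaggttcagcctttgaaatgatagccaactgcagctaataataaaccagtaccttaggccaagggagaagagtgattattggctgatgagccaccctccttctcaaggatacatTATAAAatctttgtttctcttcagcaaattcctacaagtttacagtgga
TATAAA began 31 bases before the start in Cyp2c11, 41 bases in Cyp2c13 and 49 bases in Cyp2e1, with a second match at 170 bases on the opposite strand of Cyp2c13, and the stretch of Cyp2f4 held none. Among the 8 promoters 6 held TATAAA, against 12.9% of 33469 promoters of the same length. The half-site AGGTCA of nuclear receptors was in 4 of the 8, those of Cyp2c7, Cyp2c11, Cyp2c22 and Cyp2e1, against 14.1% of all promoters. The letters TTGCNNAA, like those C/EBP factors bind, were in 2 of the 8, against 9.2%, and the STAT letters TTCNNNGAA in 0 of the 8, against 7.7%. Both strands were searched, and a match is a description of letters, not of a bound site. In Cyp2c7 the AGGTCA match overlaps a TATAAA match by 1 base.

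Cyp2f4 encodes the enzyme that activates naphthalene in rat lung and liver. At 24 h its probeset gave 1158, 1225, 1091, 1154 and 1415 signal units in the 10 mM cultures, against 9291, 8842, 7518, 10434 and 10404 in the water cultures. The highest treated culture was far below the lowest water culture. The change was -2.92 ± 0.16 (adjusted p = 6.61e-16), with means of 1209 in the 10 mM cultures and 9298 in the water cultures. At 48 h the signals were 1753, 3877, 1498, 1332 and 2139 in the 10 mM cultures, against 9615, 8161, 7881, 8337 and 7216 in the water cultures. The groups again did not overlap, and culture 2 stood highest among the treated. The change at 48 h was -2.06 ± 0.16 (adjusted p = 3.92e-12), and -2.30 without culture 2. On the log2 scale the SD of the 10 mM cultures was 0.60 at 48 h and 0.14 at 24 h. The SE pools the spread of all 6 groups, so it understates that of the 10 mM group at 48 h. The 48 h response was smaller than the 24 h response by 0.87 ± 0.23 (adjusted p = 0.0108). Leaving out 1 culture at a time gave 0.62 to 1.01 for this difference, with the lowest value without culture 2 and the call kept. At 0.5 mM the changes were 0.10 ± 0.16 at 24 h and 0.08 ± 0.16 at 48 h, and neither was called. In order of the means, the 4 groups at water and 0.5 mM (8242 to 9880) overlapped as neighbours, and a gap without overlap separated them from 10 mM at 48 h (2120) and at 24 h (1209).

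Among the CYP2A genes, Cyp2a2 encodes a testosterone hydroxylase of the male rat liver. At 24 h it gave 2642, 2444, 2506, 2308 and 2889 signal units in the 10 mM cultures, against 10600, 11833, 11920, 11546 and 11366 in the water cultures. At 48 h it gave 3588, 4899, 3407, 2767 and 3301 in the 10 mM cultures, against 9590, 9250, 8492, 9214 and 10073 in the water cultures. Neither pair of groups overlapped. Cyp2a2 fell by 2.16 ± 0.09 at 24 h (adjusted p = 3.06e-18) and by 1.40 ± 0.09 at 48 h (adjusted p = 1.15e-13), and without culture 2 the 48 h change was -1.51. Its response was smaller at 48 h by 0.76 ± 0.13 (adjusted p = 0.000152). Leaving out 1 culture at a time gave 0.65 to 0.85 for this difference, with the lowest value without culture 2 and the call kept.

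At 0.5 mM Cyp2a2 was higher than in water at 48 h. Its signals there were 12422, 11610, 14550, 12255 and 11288 in the 0.5 mM cultures, all above the water cultures given before. It rose by 0.41 ± 0.09 (adjusted p = 0.00144), while the change at 24 h was -0.03 ± 0.09 (adjusted p = 0.82). The difference between these responses, 0.44 ± 0.13, was called at an adjusted p of 0.0175, and it was 0.36 (adjusted p = 0.122) without the 3 arrays of high actin ratio. In order of the means, 0.5 mM at 48 h (12425), water at 24 h (11453) and 0.5 mM at 24 h (11180) overlapped as neighbours. Water at 48 h (9324) stood below them and above both 10 mM groups without overlap.

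Cyp2a1 encodes a testosterone hydroxylase that is higher in female than in male rat liver. At 24 h it gave 5230, 4361, 4009, 3325 and 5047 signal units in the 10 mM cultures, against 5799, 5645, 4227, 8397 and 6517 in the water cultures, and the groups overlapped through water culture 3. The change was -0.46 ± 0.15 (adjusted p = 0.0104), and it was -0.34 (adjusted p = 0.0563) without water culture 4. At 48 h the 10 mM cultures gave 3513, 3663, 4006, 3818 and 5025, against 7752, 6851, 7100, 6533 and 6733 in the water cultures. These groups did not overlap, and the change was -0.81 ± 0.15 (adjusted p = 3.36e-05).

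At 0.5 mM and 24 h Cyp2a1 gave 8070, 9565, 9109, 9842 and 6162 signal units, and this range overlapped that of water. The rise of 0.50 ± 0.15 (adjusted p = 0.0141) was 0.37 (adjusted p = 0.0614) without water culture 3, whose actin ratio was high. With the actin ratio as covariate it was 0.31 (adjusted p = 0.0913). The call was kept when all 3 arrays of high actin ratio were left out. At 48 h the change was 0.13 ± 0.15 (adjusted p = 0.581). All neighbours in the order of its group means overlapped. The probeset shared by both CYP2A genes fell by 1.03 ± 0.09 at 24 h (adjusted p = 2.72e-11) and by 0.80 ± 0.09 at 48 h (adjusted p = 8.74e-09) at 10 mM, between the changes of the separate probesets at 24 h and close to that of Cyp2a1 at 48 h. At 0.5 mM it rose by 0.28 ± 0.09 at 24 h (adjusted p = 0.0235), a call lost after quantile normalization (0.20, adjusted p = 0.0947) and without water culture 3 (0.20, adjusted p = 0.0966), and it was not called at 48 h (0.20 ± 0.09, adjusted p = 0.109).

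Of the CYP2C genes, Cyp2c11 encodes the main steroid hydroxylase of the male rat liver. At 24 h it gave 9053, 8828, 8999, 10070 and 11174 signal units in the 10 mM cultures, against 27398, 30890, 24958, 30672 and 36144 in the water cultures. At 48 h it gave 6214, 11878, 5436, 4670 and 5993 in the 10 mM cultures, against 31542, 30447, 27346, 31279 and 31521 in the water cultures. All treated cultures lay below all water cultures at both times, and culture 2 at 48 h was again the highest treated one. Cyp2c11 fell by 1.63 ± 0.15 at 24 h (adjusted p = 4.34e-11) and by 2.23 ± 0.15 at 48 h (adjusted p = 8.32e-14), leaving 32.1% and 22.5% of the water mean. The SE is again pooled over the groups, while the log2 SD of the 10 mM cultures was 0.52 at 48 h and 0.14 at 24 h. The difference between the times, -0.60 ± 0.21, was not called (adjusted p = 0.0602), and without culture 2 it was -0.82 (adjusted p = 0.000145). It was called after quantile normalization (-0.64, adjusted p = 0.0357), with array weights (-0.66, adjusted p = 0.00735), with a block for each run of 6 arrays (adjusted p = 0.0456) and with the filter at the 50th percentile (adjusted p = 0.0454).

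Cyp2c11 was also the member that 0.5 mM lowered by the most. At 48 h the 0.5 mM cultures gave 25775, 20790, 17381, 17792 and 21240 signal units, all below the water cultures. The change was -0.58 ± 0.15 (adjusted p = 0.00407), against -0.16 ± 0.15 at 24 h (adjusted p = 0.446). The 2 lowest of these 0.5 mM cultures, 3 and 4, were those with a high actin ratio, and without the 3 arrays of high ratio the change was -0.43 (adjusted p = 0.0643). In order of the means the groups ran from water at 48 h (30427) and at 24 h (30012) over 0.5 mM at 24 h (26666) and 48 h (20595) to 10 mM at 24 h (9625) and 48 h (6838), and only 0.5 mM at 48 h and 10 mM at 24 h did not overlap as neighbours.

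**Figure D2:**
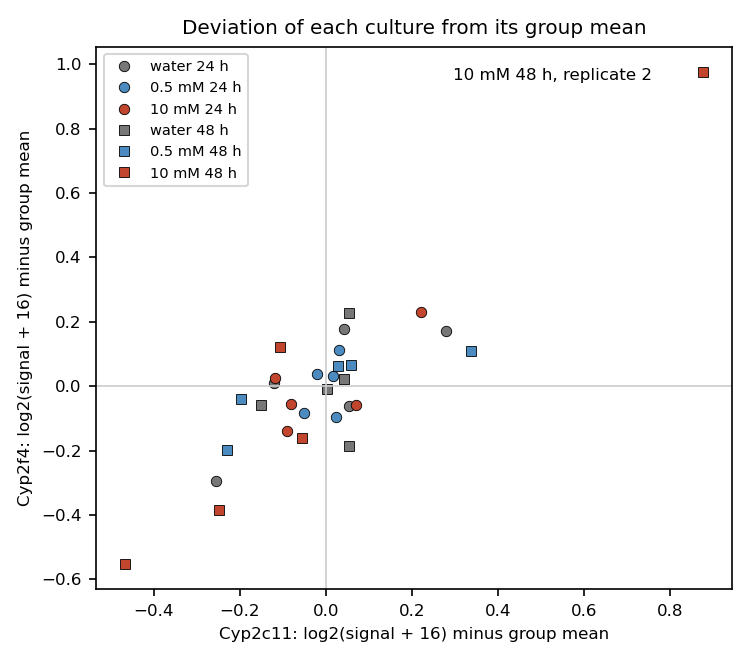
Deviation of each of the 30 cultures from the mean of its group, on the log2(signal + 16) scale, for Cyp2c11 (horizontal) and Cyp2f4 (vertical), with colours for dose and shapes for time. Culture 2 of 10 mM at 48 h lies alone at the upper right, with 11878 signal units of Cyp2c11 and 3877 of Cyp2f4.

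Cyp2c13, another steroid hydroxylase of the male rat liver, moved the other way at 48 h. It gave 11538, 9708, 9937, 9908 and 10718 signal units in the 10 mM cultures, against 3338, 4172, 4666, 4327 and 5400 in the water cultures. Every treated culture was above every water culture, and Cyp2c13 rose by 1.25 ± 0.09 (adjusted p = 3.06e-13), to 236.5% of the water mean. At 24 h it gave 8502, 7862, 8412, 8219 and 8093 in the 10 mM cultures, against 8647, 9150, 8879, 9840 and 10061 in the water cultures, which did not overlap. The change of -0.18 ± 0.09 was not called (adjusted p = 0.0926), whereas 38.3% of all probesets had groups without overlap in that comparison.

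In the water cultures Cyp2c13 at 48 h was 47.0% of its 24 h mean, a change of -1.10 ± 0.09 (adjusted p = 1.65e-10). The 10 mM mean at 48 h was 10362 units, near the water mean at 24 h of 9315. The interaction of 10 mM with time was 1.43 ± 0.12 (adjusted p = 1.62e-09). At 0.5 mM Cyp2c13 rose by 0.33 ± 0.09 at 24 h (adjusted p = 0.00548) and by 0.85 ± 0.09 at 48 h (adjusted p = 1.65e-08), and neither pair of groups overlapped. At 48 h its means thus ran 4381, 7842 and 10362 units for water, 0.5 mM and 10 mM, with no overlap between any of the 3 groups. In order of the means, 0.5 mM at 24 h (11730), 10 mM at 48 h and water at 24 h overlapped as neighbours, then came 10 mM at 24 h (8217) and 0.5 mM at 48 h, which overlapped each other, and last water at 48 h. The suffix of its probeset, 1370495_s_at, marks probes that can match more than 1 transcript, so signal of a related CYP2C transcript may be included.

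Cyp2c22 and Cyp2c7 encode enzymes that hydroxylate retinoic acid. At 24 h Cyp2c22 gave 36167, 39208, 34971, 38279 and 38322 signal units in the 10 mM cultures, against 54241, 60761, 52589, 58853 and 68091 in the water cultures. The groups did not overlap, and the change was -0.65 ± 0.07 (adjusted p = 6.98e-10). At 48 h it gave 53322, 55270, 47048, 49146 and 46766 in the 10 mM cultures, against 56375, 57798, 51818, 58000 and 56613 in the water cultures, which overlapped. That change, -0.16 ± 0.07, was not called (adjusted p = 0.0521). It was called when any of 8 single cultures was left out, among them culture 2 of 10 mM (-0.19, adjusted p = 0.022). It was also called with array weights (-0.19, adjusted p = 0.00687). Its direction depended on the scaling, with 0.02 after quantile normalization (adjusted p = 0.698) and 0.05 after centring on ribosomal protein genes (adjusted p = 0.398). The responses at the 2 times differed by 0.49 ± 0.09 (adjusted p = 0.000528). At 0.5 mM the changes of Cyp2c22 were 0.13 and 0.04, and neither was called, with -0.06 at 24 h after quantile normalization. In order of its means all groups overlapped their neighbours except 10 mM at 24 h (37389), which lay below 10 mM at 48 h (50310).

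Cyp2c7 gave 2308, 2808, 2756, 3014 and 2753 signal units at 10 mM and 24 h, against 3905, 3127, 3761, 3573 and 3835 in water. The groups did not overlap, and it fell by 0.42 ± 0.10 (adjusted p = 0.000526). At 48 h the means were 2131 ± 136 in the 10 mM cultures, 2179 ± 346 in the 0.5 mM cultures and 2039 ± 257 in the water cultures (SD, n = 5 each), with overlap between all 3 groups. The change of 0.07 ± 0.10 at 10 mM was not called (adjusted p = 0.609), and the responses at the 2 times differed by 0.48 ± 0.14 (adjusted p = 0.0175). Cyp2c7 also declined with time in water, to 56.0% of its 24 h mean. In order of its means, 0.5 mM (4070) and water (3640) at 24 h overlapped, and all other groups lay below them, from 10 mM at 24 h (2728) down, each overlapping the next.

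Cyp2c23 encodes an epoxygenase of arachidonic acid. It was called at 48 h and not at 24 h. At 48 h it gave 2838, 2407, 2334, 2103 and 2138 signal units in the 10 mM cultures, against 3600, 3561, 3699, 4061 and 3791 in the water cultures. The groups did not overlap, and it fell by 0.67 ± 0.11 (adjusted p = 4.57e-06). At 24 h the means were 5315 ± 562 in the 10 mM cultures and 5081 ± 791 in the water cultures (SD, n = 5 each), with overlap and a change of 0.07 ± 0.11 (adjusted p = 0.611). The responses at the 2 times differed by -0.74 ± 0.15 (adjusted p = 0.00108). The changes at 0.5 mM were 0.16 and 0.04, and neither was called. In order of its means the 3 groups at 24 h came first, then 0.5 mM (3890) and water (3742) at 48 h, all overlapping as neighbours, and 10 mM at 48 h (2364) lay apart.

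Cyp2e1 encodes the enzyme that oxidises ethanol, acetone and acetaminophen, and in the liver lobule it is known from hepatocytes around the central vein. At 24 h it gave 3150, 2791, 3037, 3239 and 3115 signal units in the 10 mM cultures, against 5342, 6248, 4583, 5948 and 7118 in the water cultures, without overlap. Cyp2e1 fell by 0.91 ± 0.10 (adjusted p = 1.57e-09), to 52.4% of the water mean. At 48 h it gave 4833, 4512, 4401, 4325 and 4460 in the 10 mM cultures, against 4058, 3719, 3650, 3867 and 4192 in the water cultures. All treated cultures were above all water cultures there, and the change of 0.21 ± 0.10 was not called (adjusted p = 0.0829). It was 0.25 (adjusted p = 0.0164) with the actin ratio as a covariate and 0.42 (adjusted p = 0.000245) after centring on ribosomal protein genes. The responses at the 2 times differed by 1.12 ± 0.14 (adjusted p = 9.94e-07).

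The 0.5 mM dose lowered Cyp2e1 at 48 h. Its cultures gave 3733, 3008, 2779, 3027 and 2373 signal units, and the highest overlapped the lowest water cultures. The change was -0.40 ± 0.10 (adjusted p = 0.00285), and after centring on ribosomal protein genes it was -0.21 (adjusted p = 0.0913). At 24 h it was -0.11 ± 0.10 (adjusted p = 0.445). Cyp2e1 at 48 h was therefore higher at 10 mM than at 0.5 mM, by 0.61 ± 0.10 (adjusted p = 3.59e-06). In order of its means, water (5848) and 0.5 mM (5390) at 24 h and 10 mM at 48 h (4506) overlapped as neighbours, water at 48 h (3897) lay apart from both its neighbours, and 10 mM at 24 h (3066) and 0.5 mM at 48 h (2984) overlapped.

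**Figure D3:**
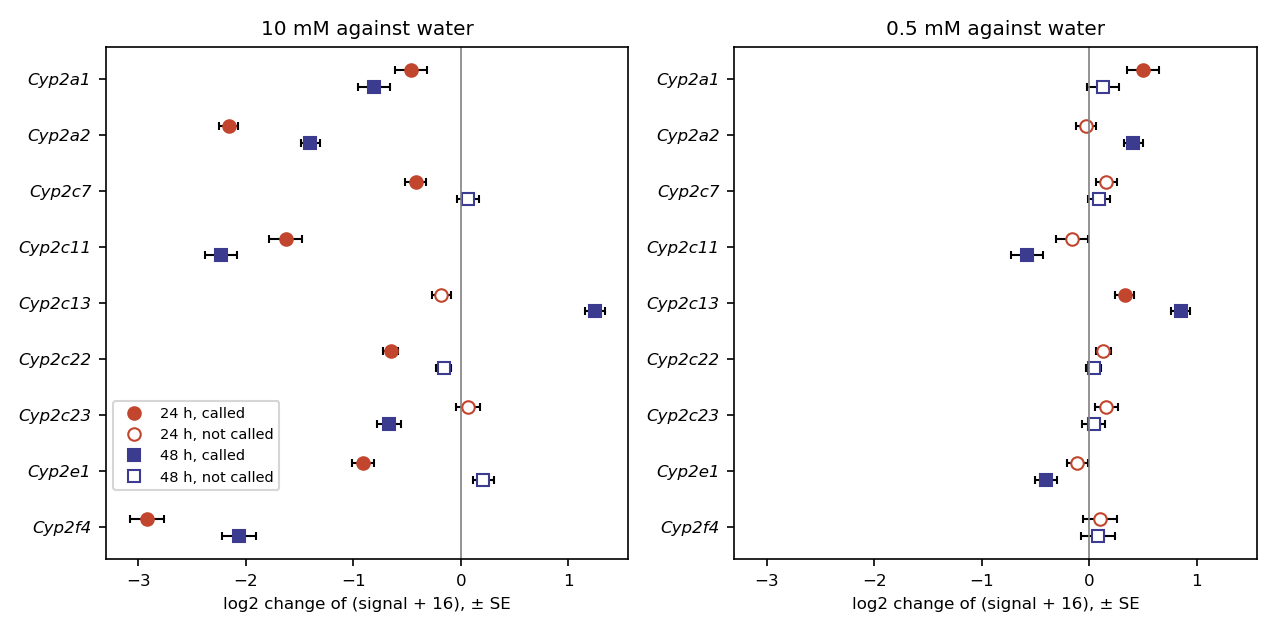
Change of each of the 9 genes against water on the log2(signal + 16) scale, for 10 mM (left) and 0.5 mM (right), with bars of 1 SE, circles for 24 h and squares for 48 h. Filled symbols were called at an adjusted p under 0.05. At 10 mM the values run from -2.92 (Cyp2f4, 24 h) to 1.25 (Cyp2c13, 48 h), and at 0.5 mM they lie between -0.58 and 0.85.

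At 0.5 mM and 24 h, 2 of the 9 genes were higher (Cyp2a1 and Cyp2c13), where 11.5% of all probesets were called higher and 12.3% lower. None was called lower by limma, and 0 were lower at an unadjusted p under 0.05. At 0.5 mM and 48 h, 2 were higher (Cyp2a2 and Cyp2c13) and 2 lower (Cyp2c11 and Cyp2e1), where 10.2% of all probesets were called higher and 11.9% lower. The interaction of 0.5 mM with time was called for 2 of the 9, Cyp2a2 and Cyp2c13 (0.51 ± 0.12, adjusted p = 0.00482), against 19.5% of all probesets, 9.83% in the higher direction.

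Set directly against 0.5 mM, 10 mM was lower for 8 of the 9 genes at 24 h, where 22.9% of all probesets were called lower, and Cyp2c23 was not called (-0.09 ± 0.11, adjusted p = 0.508). At 48 h it was lower for 6, against 19.7% of all probesets, and higher for Cyp2c13 (0.41 ± 0.09, adjusted p = 0.000228) and Cyp2e1, against 26.5%. Cyp2c7 was not called there (-0.02 ± 0.10, adjusted p = 0.901). The call of Cyp2c22, -0.20 ± 0.07 (adjusted p = 0.0143), was not kept after quantile normalization, where the change was 0.01 (adjusted p = 0.842).

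In the water cultures themselves, 5 of the 9 genes were lower at 48 h than at 24 h, where 3.84% of all probesets were called lower and 3.93% higher. None was called higher, with 0 higher at an unadjusted p under 0.05. They were Cyp2c13, Cyp2c7 (-0.84 ± 0.10, adjusted p = 4.45e-07), Cyp2e1 (-0.57 ± 0.10, adjusted p = 0.000232), Cyp2c23 (-0.43 ± 0.11, adjusted p = 0.0103) and Cyp2a2 (-0.30 ± 0.09, adjusted p = 0.0439). Cyp2c11 had means of 30427 ± 1779 units at 48 h and 30012 ± 4219 units at 24 h in water (SD, n = 5 each), a change of 0.03 ± 0.15 (adjusted p = 0.937). The call of Cyp2a2 was lost when any of 13 single cultures was left out, with a change between -0.31 and -0.26. It was also lost after quantile normalization (adjusted p = 0.0645), without the filter (adjusted p = 0.0576), without the trend in the prior variance (adjusted p = 0.073), without the 3 arrays of high actin ratio (adjusted p = 0.0654) and with that ratio as covariate (-0.25, adjusted p = 0.147). The labels give each harvest time its own cultures, so a decline with time compares different wells.

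The genes whose profiles over the 30 arrays were most like those of the members were found by Pearson correlation, as a description of arrays that share doses, times and scaling. For Cyp2a2 they were Mbl2, the mannose-binding lectin of plasma (0.993), and Slco1a4, an organic anion transporter (0.99). For Cyp2f4 they were Qprt, an enzyme of NAD synthesis (0.99), and Asb5 (0.989). For Cyp2c11 they were Defb1 (0.984) and Cyp2c12, the steroid hydroxylase of the female rat liver (0.969). For Cyp2c22 they were the sulfotransferase Sult1b1 (0.956) and the urea cycle arginase Arg1 (0.951). For Cyp2c13 they were Cyp3a2, a steroid hydroxylase of the male rat liver (0.928), and Poteml2 (0.861). The other members had Nt5c2 (0.914) and Cryz (0.912) for Cyp2a1, Rup2 (0.901) and Spink1l (0.867) for Cyp2c7, Ifitm3 (0.871) and Fabp4 (0.843) for Cyp2c23, and G0s2 (0.83) and Hsd17b6 (0.771) for Cyp2e1, which had the lowest pair. Cyp3a2 changed by 0.12 at 24 h and 1.82 at 48 h at 10 mM, and by 0.68 and 1.62 at 0.5 mM, beside -0.18, 1.25, 0.33 and 0.85 for Cyp2c13.

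Of 19 other CYP1 to CYP3 genes tested, 10 were lower and 4 higher at 10 mM and 24 h, with a median change of -0.30, and 8 were lower and 6 higher at 48 h, with a median of -0.13. With 1 probeset per gene, 56.1% of the 11604 genes tested were called at 24 h (2896 lower and 3611 higher) and 49.8% at 48 h (2582 lower and 3201 higher). Cyp2c12 changed by -1.76 ± 0.20 at 24 h and -2.73 ± 0.20 at 48 h (adjusted p = 5.71e-09 and 6.97e-13). The probeset of this gene of the female liver thus fell along with that of Cyp2c11. Whether signal of another CYP2C transcript reaches it was not tested. Cyp3a18 fell by 1.22 ± 0.12 and by 1.13 ± 0.12, and Cyp2u1, a fatty acid hydroxylase, rose by 1.43 ± 0.21 and 0.89 ± 0.21. At 0.5 mM, 8 of these 19 genes were higher and 1 lower at 24 h, against 12.7% and 16.1% of genes, and 7 were higher and 2 lower at 48 h, against 11.9% and 14.1%.

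Of 15 genes tested for P450 redox partners and for heme synthesis, binding and breakdown, 11 were lower and 2 higher at 10 mM at each time. The 2 higher ones were enzymes of heme synthesis, Alad (0.46 ± 0.08 at 24 h and 0.25 ± 0.08 at 48 h) and Urod (0.90 ± 0.06 and 0.68 ± 0.06). Among those lower at both times were Hmox1, Blvrb and Hpx, which are not synthesis enzymes. Their medians were -0.31 at 24 h and -0.36 at 48 h, against 0.07 and 0.03 for all genes. The shares called over all genes were 56.1% at 24 h and 49.8% at 48 h. Por, the P450 reductase, changed by -1.35 ± 0.10 at 24 h and -0.96 ± 0.10 at 48 h. Fech, which inserts the iron in the last step of heme synthesis, changed by -1.35 ± 0.12 and -0.95 ± 0.12. Hmox1, which degrades heme, changed by -1.04 ± 0.14 and -1.23 ± 0.14. Alas1, the first enzyme of heme synthesis, changed by -0.72 ± 0.08 and -0.23 ± 0.08, and its call at 48 h was lost after quantile normalization (-0.16, adjusted p = 0.125) and after ribosomal centring (-0.02). At 0.5 mM, 3 of the 15 genes were higher at 24 h, and 4 were higher and 2 lower at 48 h. Among all genes, 12.7% were higher and 16.1% lower at 24 h, and 11.9% and 14.1% at 48 h.

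Of 24 transcriptional regulators of hepatic P450 genes tested, 13 were lower and 6 higher at 10 mM and 24 h, with a median of -0.40. At 48 h 7 were lower and 6 higher, with a median of 0.01. Among all genes tested, 56.1% were called at 24 h and 49.8% at 48 h. Higher at 24 h were Hlf (1.16), Rora (0.87), Foxa3 (0.71), Ncoa1 (0.61), Cebpd (0.53) and Onecut1 (0.51). Of these, Hlf (1.22), Rora (0.39), Foxa3 (0.32) and Ncoa1 (0.40) were also called higher at 48 h. Nr1h3, the oxysterol receptor LXR alpha, changed by -3.10 ± 0.14 and -1.99 ± 0.14, and the forkhead factor Foxa1 by -2.23 ± 0.31 and -2.26 ± 0.31. The drug-sensing receptors Nr1i3 (CAR) and Nr1i2 (PXR) changed by -1.76 ± 0.14 and -1.24 ± 0.07 at 24 h, and by -1.16 ± 0.14 and -0.70 ± 0.07 at 48 h. Hnf4a, a nuclear receptor that maintains hepatocyte identity, was lower at 24 h (-0.79 ± 0.10, adjusted p = 7.03e-08) and higher at 48 h (0.42 ± 0.10, adjusted p = 0.000946). Cebpa changed by -0.65 ± 0.08 and -0.31 ± 0.08, and its call at 48 h was lost after ribosomal centring (-0.10, adjusted p = 0.363). At 0.5 mM, 5 of the 24 genes were higher and 2 lower at 24 h, and 5 were higher and 3 lower at 48 h. Hnf4a was among them, at -0.65 ± 0.10 (adjusted p = 1.49e-05) and 0.28 ± 0.10 (adjusted p = 0.0488). The shares over all genes at 0.5 mM were 12.7% higher and 16.1% lower at 24 h, and 11.9% and 14.1% at 48 h.

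Of 12 genes of growth hormone signalling tested at 10 mM, 2 were lower and 3 higher at 24 h, with a median of 0.13. At 48 h 2 were lower and 1 higher, with a median of 0.16. Among all genes tested, 56.1% were called at 24 h and 49.8% at 48 h, larger shares than in this list. Ghr, the growth hormone receptor, fell by 1.01 ± 0.08 at 24 h (adjusted p = 7.34e-12) and by 1.41 ± 0.08 at 48 h (adjusted p = 9.14e-15), and by 0.29 and 0.32 at 0.5 mM. The kinase Jak2, which the receptor uses, rose by 1.05 ± 0.24 at 24 h (adjusted p = 0.00049), and the phosphatase Ptpn11 by 0.53 ± 0.09 (adjusted p = 4.75e-06). At 48 h neither was called, with 0.37 ± 0.24 for Jak2 (adjusted p = 0.242) and 0.19 ± 0.09 for Ptpn11 (adjusted p = 0.0901), which was 0.30 after quantile normalization (adjusted p = 0.0027). At 0.5 mM and 48 h both fell, Jak2 by 0.66 ± 0.24 (adjusted p = 0.0468) and Ptpn11 by 0.55 ± 0.09 (adjusted p = 1.83e-05). At 0.5 mM, 2 of the 12 genes were higher and 1 lower at 24 h, and 2 were higher and 3 lower at 48 h. The shares over all genes were 12.7% higher and 16.1% lower at 24 h, and 11.9% and 14.1% at 48 h.

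**Figure D4:**
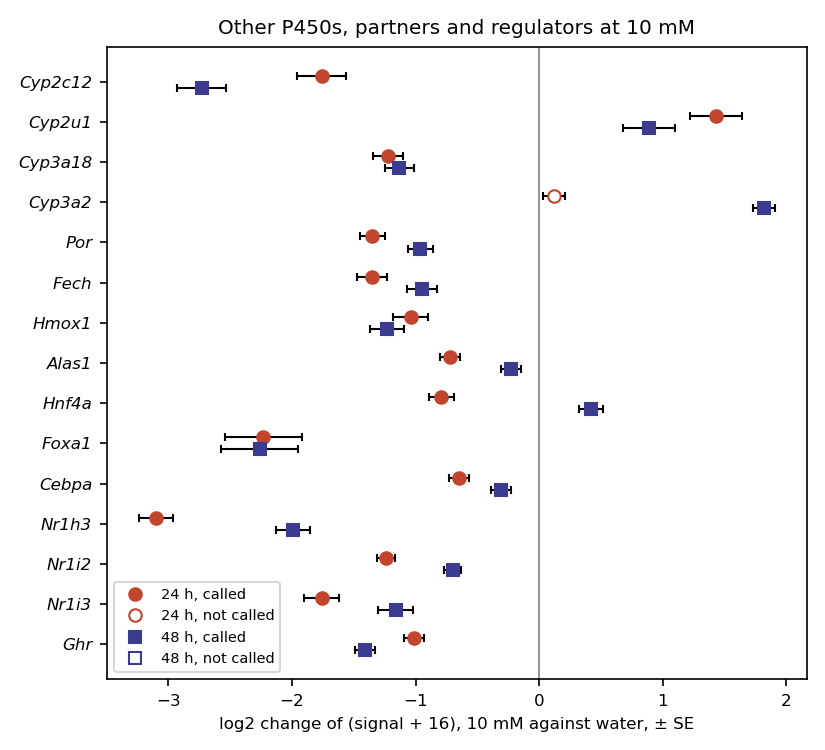
Change at 10 mM against water, on the log2(signal + 16) scale with bars of 1 SE, for other P450 genes, redox and heme genes, regulators and the growth hormone receptor, with circles for 24 h and squares for 48 h. Filled symbols were called. The regulators called higher at 24 h are not shown. Por and Ghr lie below 0 at both times, and Hnf4a lies at -0.79 at 24 h and at 0.42 at 48 h.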

How the data were processed

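Total RNA of 30 cultures was read on 1 array each. Per the file headers, the deposited columns hold 1 linear signal intensity for every probeset of an array. These were made by the authors with MAS5, as the submitters' processing notes name it without a version. The trimmed mean signal of an array, without the outer 2% at each end, lay between 1500.5 and 1500.7, so arrays had been scaled to 1 level before deposit. A change of most genes in 1 direction would be hidden by such scaling. Control probesets (57) were left out. In the platform annotation 20826 probesets had 1 symbol, 436 had several and 9780 had none. The scale of analysis was log2(signal + 16), on which dim probesets show too small a change. The filter kept 21729 probesets whose mean reached the 30th percentile (7.39), and these entered 1 model of the 6 groups in limma 3.58.1 under R 4.3.3 (lmFit, eBayes with a trend, 24 residual degrees of freedom, two-sided tests). Adjusted p-values are Benjamini-Hochberg values over all probesets of a comparison. On simulated data with normal noise the test recovered 78 of 100 changes of 1 and 94 of 100 changes of 2 on the log2 scale. That simulation was for 10 mM against water at 24 h, and no other probeset of the 21729 was changed in it. In the real comparison 48.2% were called, so these rates need not hold for these data. For gene lists each gene was its probeset with the highest mean. The text names all members, up to 3 called genes per list with the largest change at 10 mM and 24 h, Hnf4a, Cebpa, Nr1i2, Nr1i3, Por, Alas1, Ghr and Glul, and the 2 most correlated genes of each member. It also names Alad, Urod, Blvrb and Hpx, and the regulators called higher at 10 mM and 24 h. The members, lists and tests were chosen with earlier results of these data known. The 43 alternatives were 30 that leave out 1 culture each and 13 others, on pseudocount, scaling, filter, trend, groups, weights, fold minimum, runs of 6 arrays and actin ratio. Promoters came from a RefSeq table (GRCr8). Python 3.11.15 with matplotlib 3.10.9 drew the figures.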

Additional observations from a re-analysis of the deposited data

Results flagged for a closer look

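Of 60 groups of 5 arrays checked, 3 held a culture whose gap to the rest was large for the range of its group, which is about the number that chance gives at the 95% level used. In water at 48 h, culture 3 was the lowest for Cyp2c11, at 27346 signal units, and for Cyp2c22, at 51818 units. In the same group culture 1 was the highest for the probeset shared by Cyp2a1 and Cyp2a2, at 15904 units. The difference between the 48 h and 24 h response was tested itself. It was called for 7 of the 9 members at 10 mM, against 10.5% of all probesets. At 0.5 mM it was called for 2 of the 9, against 19.5% of all probesets. At 10 mM it was 0.76 for Cyp2a2, 0.48 for Cyp2c7, 1.43 for Cyp2c13, 0.49 for Cyp2c22, -0.74 for Cyp2c23, 1.12 for Cyp2e1 and 0.87 for Cyp2f4. At 0.5 mM it was 0.44 for Cyp2a2 and 0.51 for Cyp2c13. The call of Cyp2a2 was lost without the 3 arrays of high actin ratio (0.36, adjusted p = 0.122). It was also lost with that ratio as covariate (0.35, adjusted p = 0.217).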

How the results depend on the processing

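Of 3483 values of the members and alternatives, 3384 kept their call or lack of one, 60 lost a call (27 with the fold minimum set aside), 38 gained one and 1 called value turned. Of the 3384, 40 that were called in neither fit changed sign. A fold minimum of 2 left 3 of 7 genes lower at 10 mM and 24 h, 3 of 5 at 48 h, 0 at 0.5 mM at either time, 3 called between the doses at each time, 2 for the interaction of 10 mM with time, 0 for that of 0.5 mM and 1 for time in water. At 10 mM and 48 h, 3 genes were higher after ribosomal centring, and 2 with only the compared groups, with array weights or with the actin ratio as covariate, in place of 1. The covariate left 1 of 2 calls at 0.5 mM and 24 h. For the interaction of 0.5 mM with time, 1 of 2 calls was left with the covariate, and 1 of 2 without the 3 arrays of high actin ratio. The direction turned for Cyp2c22 between the doses at 48 h after quantile normalization (0.01). Causes were not tested beyond these settings. Leaving out 1 culture at a time gave 6 to 8 genes lower and 0 to 0 higher at 10 mM and 24 h, 5 to 6 lower and 1 to 1 higher at 48 h, 1 to 3 called at 0.5 mM and 24 h (1 without water culture 3), 4 to 4 at 48 h, 8 to 8 and 7 to 8 between the doses, 7 to 8 and 2 to 3 for the interactions, and 4 to 5 for time in water. Ribosomal centring put the median change of all probesets at 0.25 for 10 mM and 48 h, against 0.04 as deposited, and at 0.18 against -0.00 for 0.5 mM and 48 h. Relative to the deposited median the 10 mM changes at 48 h were 0.17 for Cyp2e1 and 0.03 for Cyp2c7. Ribosomal centring shifts all probesets of an array alike, so it cannot alter these values. After quantile normalization they were 0.20 for Cyp2e1 and 0.01 for Cyp2c7. The labels give no replicate numbers, so arrays were blocked by consecutive sets of 6 in the numbering of the titles. With this block 7 genes were lower at 10 mM and 24 h and 6 at 48 h. Among the members it changed only the calls of Cyp2c22 at 10 mM and 48 h (-0.16, adjusted p = 0.0474) and of Cyp2c11 for the interaction of 10 mM with time (-0.60, adjusted p = 0.0456). Detection calls were not used here.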

Other observations

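Among all genes tested at 10 mM, 56.1% were called at 24 h and 49.8% at 48 h. Of 13 periportal hepatocyte genes tested at 10 mM, 9 were lower and 2 higher at 24 h, with a median change of -0.45. At 48 h 8 were lower and 3 higher, with a median of -0.33. Hal, which breaks down histidine, changed by -2.58 ± 0.14 at 24 h and -0.86 ± 0.14 at 48 h, and Cdh17, a cadherin, by -1.52 ± 0.12 and -1.06 ± 0.12. Pck1, a key enzyme of glucose synthesis, rose by 2.29 ± 0.20 and 3.30 ± 0.20. Of 13 pericentral genes tested, 6 were lower and 4 higher at 24 h, with a median of -0.04, and 4 were lower and 3 higher at 48 h, with a median of -0.10. Cyp27a1, a sterol hydroxylase, changed by -1.87 ± 0.11 and -1.62 ± 0.11, and Gulo, which makes ascorbate, by -0.92 ± 0.09 and -0.65 ± 0.09. Axin2, a target of Wnt signalling, rose by 0.90 ± 0.17 at 24 h and had a change of 0.11 ± 0.17 at 48 h. Glul, the glutamine synthetase of the cells next to the central vein, changed by 0.12 ± 0.07 at 24 h (adjusted p = 0.168), and by 0.23 after quantile normalization (adjusted p = 0.00315). The difference between the 2 lists was not tested.

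The marker counts at 10 mM stand beside 56.1% of all genes called at 24 h and 49.8% at 48 h. Of 13 hepatocyte markers tested, 9 were lower at 10 mM and 24 h, with a median of -0.22. At 48 h 7 were lower and 1 higher, with a median of -0.17. Of 10 macrophage and Kupffer cell markers tested, 7 were lower at each time, with medians of -0.89 and -0.79. Of 9 stellate cell and fibroblast markers tested, 3 were lower and 1 higher at each time, with medians of -0.08 and 0.01. Of 6 endothelial markers 1 was called at each time, lower at 24 h and higher at 48 h. Of 4 biliary markers 2 were lower and 1 higher at each time, with medians of -0.09 at 24 h and -0.80 at 48 h. The summed signal of 9 biliary markers was 7261 to 8753 in 10 mM cultures and 8742 to 11102 in water cultures at 24 h. At 48 h it was 6440 to 8058 against 12786 to 14610.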
